A study of Arabidopsis thaliana with 9 samples.

Results

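A group of 10 genes of salicylic acid and pipecolic acid immunity was followed in whole Arabidopsis thaliana seedlings of emb1579-3, emb1579-1 and the wild type Col-0. They were chosen by name, as PR1, PR2, PR5, ICS1, EDS5, PBS3, ALD1, FMO1, CBP60G and SARD1, from 33602 loci in the count table, of which 33323 were nuclear. All 10 passed the filter on low counts together with 20434 nuclear genes in all. By their labels, both lines were in the Col-0 background and carry mutations of EMB1579, which the labels also call rsa1. The labels describe neither lesion. Seeds of every genotype spent 3 days in stratification on dilute Murashige and Skoog medium and grew for 6 days at 20 °C, with no treatment or pathogen named. The series asked about root growth, and roots and shoots were not separated, so a change in the share of a cell type and a change in RNA per cell cannot be told apart.

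The values rest on 3 emb1579-3 libraries, 3 libraries labelled emb1579-1 and 2 Col-0 libraries, with 24.1 to 37.5 M counts each, of which 12.465 to 19.034 M fell on nuclear genes. The columns used for emb1579-3 carry another line number than the labels give, and they were tied to that genotype because no other columns were left. Col-0 replicate 3 held 0.423 M nuclear counts, correlated with the other libraries at 0.13 or less, and was left out. EMB1579 (AT2G03150) was at 4.06, 2.08 and 2.17 CPM (counts scaled to a common nuclear library size, TMM-normalised) in emb1579-3, at 90.3, 94.2 and 92.0 CPM in the libraries labelled emb1579-1, and at 93.6 and 94.5 CPM in Col-0. Its transcript was thus low in emb1579-3 alone, with a log2 fold change of -5.07 (SE 0.15, adjusted p = 2.39e-12 in edgeR's quasi-likelihood test) against Col-0, and of -0.03 (SE 0.11, adjusted p = 0.898) under the label emb1579-1. A count per gene cannot show a changed transcript sequence, so the second line is called by its label throughout.

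Salicylic acid (SA) is made by way of isochorismate, which ICS1 forms from chorismate in plastids. Isochorismate leaves the plastid through EDS5, and PBS3 joins it to glutamate in a conjugate that breaks down to SA. A parallel branch uses ALD1 to turn lysine into the precursor of pipecolic acid, which FMO1 hydroxylates to N-hydroxypipecolic acid (NHP), a signal of systemic acquired resistance. SARD1 and CBP60G are related transcription factors that bind genes of both branches, and PR1, PR2 and PR5 encode secreted antimicrobial proteins that are widely used as readouts of the SA response.

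Within the 250 bases before the annotated start, the heptamer GAAATTT, known as a binding motif of SARD1 and CBP60G, was found on either strand in 3 of the 10 genes, ICS1, ALD1 and FMO1. Among 26711 nuclear promoters of the same length, 12.5% held it. These 3 upstream stretches are printed because they belong to the first enzyme of each branch, the only members past the threshold in both lines, and to the last enzyme of the NHP branch. The letters were read from the RefSeq sequence of TAIR10.1, 5′ to 3′ on the strand of the gene, and capitals mark GAAATTT or its reverse complement.
ICS1, chr1:28070045-28070294, plus strand: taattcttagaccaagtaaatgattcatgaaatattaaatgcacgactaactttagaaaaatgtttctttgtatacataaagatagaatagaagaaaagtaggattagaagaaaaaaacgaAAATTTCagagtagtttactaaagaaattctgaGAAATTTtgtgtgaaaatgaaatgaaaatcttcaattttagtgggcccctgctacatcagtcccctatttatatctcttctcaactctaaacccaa
ALD1, chr2:5768167-5768416, plus strand: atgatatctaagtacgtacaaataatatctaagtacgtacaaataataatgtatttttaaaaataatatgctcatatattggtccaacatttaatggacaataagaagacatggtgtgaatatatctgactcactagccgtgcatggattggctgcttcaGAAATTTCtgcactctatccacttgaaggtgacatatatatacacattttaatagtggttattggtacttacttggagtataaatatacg
FMO1, chr1:6653196-6653445, minus strand: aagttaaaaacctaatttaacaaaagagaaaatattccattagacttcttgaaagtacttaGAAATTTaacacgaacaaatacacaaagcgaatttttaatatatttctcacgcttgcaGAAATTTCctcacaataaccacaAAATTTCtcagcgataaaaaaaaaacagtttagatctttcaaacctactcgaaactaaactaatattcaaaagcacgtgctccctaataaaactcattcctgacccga
In ICS1 the 2 matches began 129 and 96 bases before the start. ALD1 held 1 stretch of 8 letters beginning 90 bases before the start, which reads as the motif on both strands. FMO1 held 3 stretches, beginning 189, 131 and 108 bases before the start, and the middle one again reads on both strands. The W box core TTGAC, a WRKY motif, stood in PR1, PR5, EDS5 and SARD1, that is in 4 of 10, against 45% of promoters. The TGA factor core TGACG stood in SARD1 only, against 18.6% of promoters, and the CAMTA box ACGCGT stood in none, against 1.7%. In SARD1 the TGACG matches began 212, 209 and 188 bases before the start. Those at 212 and 209 overlapped W box cores, and that at 188 did not. A match is a match of letters only, and no stretch overlapped a neighbouring gene.

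**Figure D1:**
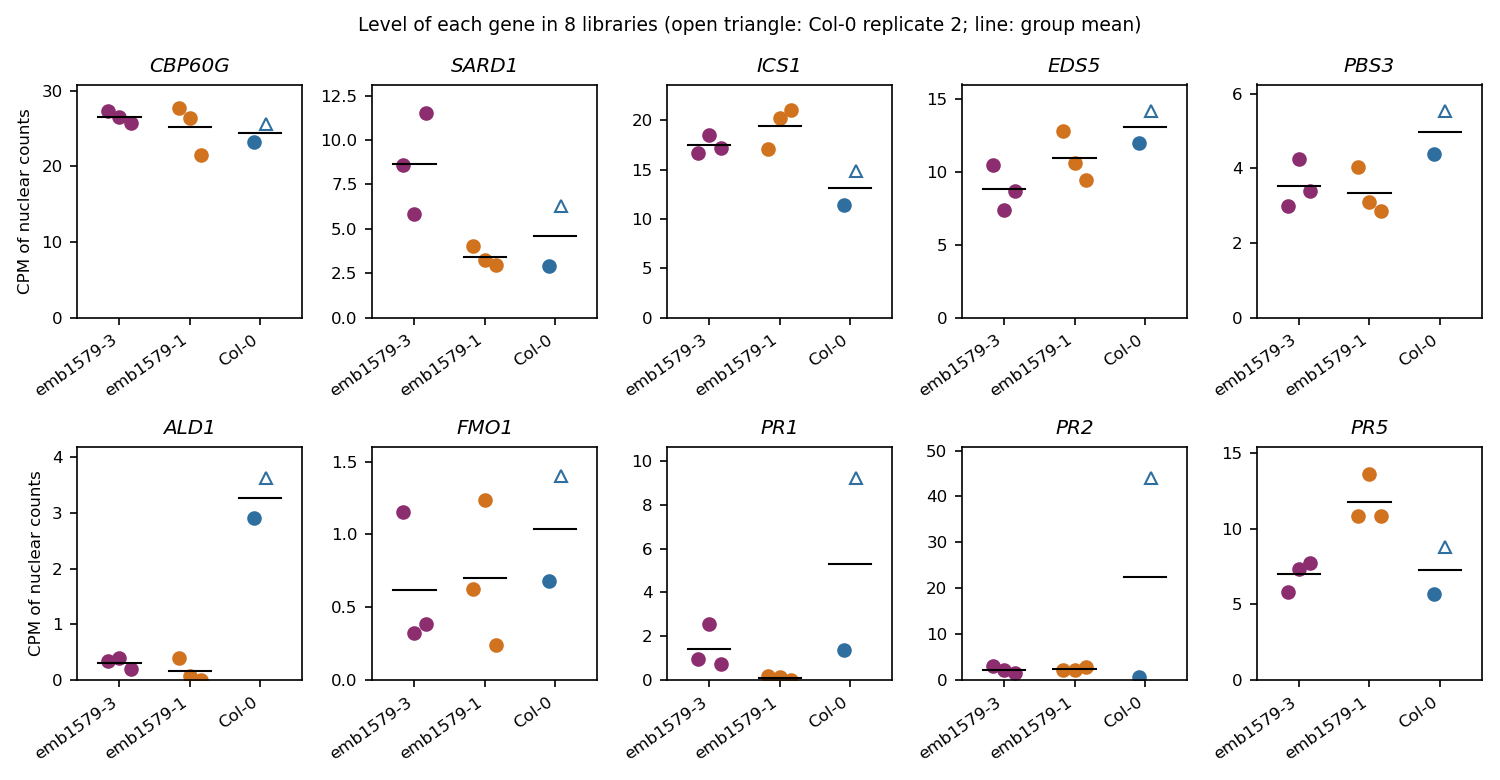
Level of each of the 10 genes in 8 libraries, in CPM of nuclear counts on linear axes that start at 0. Points are libraries, the horizontal line is the group mean, and the open triangle is Col-0 replicate 2. ALD1 lies at 0.400 CPM or less in all 6 libraries of the 2 lines and above 2.9 CPM in both Col-0 libraries, while PR2 sits at 44.1 CPM in Col-0 replicate 2 and at 0.619 CPM in Col-0 replicate 1.

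Read together, the pathway did not move one way. Against Col-0, emb1579-3 had 1 of the 10 genes higher (ICS1), 2 lower (EDS5 and ALD1) and 7 that did not pass the test at an adjusted p under 0.05. In that comparison 10% of all tested genes were called higher and 10.5% lower, 20.5% in either direction. Under the label emb1579-1, 2 of the 10 were higher (ICS1 and PR5), 2 lower (PR1 and ALD1) and 6 did not pass, against 8.35% of all tested genes higher and 9.63% lower, 18% in either direction. Since 10% of 10 genes is 1 gene, counts of 1 or 2 in a direction are near the share of all tested genes. With Col-0 replicate 3 added as a ninth library, edgeR called 0 of the members it tested in either line, and ALD1 was not tested. In that fit, 4 members in emb1579-3 and 6 under the label emb1579-1 had an unadjusted p under 0.05. The median log2 fold change of the 10 genes was -0.53 in emb1579-3 and -0.50 under the label emb1579-1, where all tested genes had medians of -0.005 and 0.002. All 10 were higher in Col-0 replicate 2 than in replicate 1, with a median log2 ratio of 0.48, so these medians depend on that library. Against Col-0 replicate 1 alone, PR2 and PR5 in emb1579-3 turned from below to above 0. PR2, FMO1 and SARD1 did so under the label emb1579-1, and no member turned the other way. Both comparisons use the same Col-0 libraries.

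Of the regulators, CBP60G (AT5G26920, chromosome 5, 9475679 to 9478777, plus strand) was expressed evenly. It was at 27.4, 26.5 and 25.7 CPM in emb1579-3, at 27.7, 26.4 and 21.5 CPM in the libraries labelled emb1579-1, and at 23.2 and 25.5 CPM in Col-0. The emb1579-3 libraries lay just above both Col-0 libraries, as in 24.1% of all tested genes, and those labelled emb1579-1 spanned them. Against Col-0 the log2 fold change came to 0.12 (SE 0.11, adjusted p = 0.508) in emb1579-3 and 0.05 (SE 0.11, adjusted p = 0.832) under the label emb1579-1.

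Its paralogue SARD1 (AT1G73805, chromosome 1, 27744790 to 27749248, minus strand) was more variable. SARD1 was at 8.60, 5.84 and 11.5 CPM in emb1579-3, at 4.04, 3.23 and 2.94 CPM in the libraries labelled emb1579-1, and at 2.91 and 6.27 CPM in Col-0. All emb1579-3 libraries were above all libraries labelled emb1579-1, as were 7.22% of all tested genes, and each line overlapped Col-0. Neither line passed the test against Col-0, with a log2 fold change of 0.90 (SE 0.33, adjusted p = 0.0792) in emb1579-3 and of -0.45 (SE 0.36, adjusted p = 0.451) under the label emb1579-1. Against Col-0 replicate 1 alone, SARD1 was higher in emb1579-3 by 1.58 on the log2 scale (adjusted p = 0.00603), but against Col-0 replicate 2 alone the value was 0.49 (adjusted p = 0.279). SARD1 passed without the second emb1579-3 library (1.12, adjusted p = 0.0207) and with DESeq2 (0.91, adjusted p = 0.0255), and did not without the first (0.91, adjusted p = 0.149) or the third (0.64, adjusted p = 0.211). Between the lines the log2 difference, emb1579-3 over the label emb1579-1, was 1.35 (SE 0.31, adjusted p = 0.0963), and it passed the threshold in 6 of 16 alternative analyses. The 3′ end of SARD1 overlaps GIP2 on the opposite strand, and counting by strand is not stated, but GIP2 itself had log2 fold changes of 0.08 (SE 0.27) in emb1579-3 and -0.03 (SE 0.27) under the label emb1579-1 and did not pass the test.

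Of the SA synthesis genes, ICS1 (AT1G74710, also EDS16, chromosome 1, 28070295 to 28074177, plus strand) was higher in both lines. It was at 16.7, 18.5 and 17.2 CPM in emb1579-3, at 17.1, 20.2 and 21.0 CPM in the libraries labelled emb1579-1, and at 11.4 and 14.9 CPM in Col-0. All 6 libraries of the 2 lines were above both Col-0 libraries, as were 24.1% of all tested genes in emb1579-3 and 21.9% under the label emb1579-1. The log2 fold change was 0.40 (SE 0.13, adjusted p = 0.0425) in emb1579-3 and 0.56 (SE 0.13, adjusted p = 0.00678) under the label emb1579-1. Against Col-0 replicate 2 alone, ICS1 lost the call in emb1579-3 (0.24, adjusted p = 0.343) and under the label emb1579-1 (0.40, adjusted p = 0.0895). The call in emb1579-3 was also lost with DESeq2 (adjusted p = 0.071), without any 1 of its own 3 libraries (0.37 to 0.43, adjusted p = 0.0596 to 0.108) and without the third library labelled emb1579-1 (adjusted p = 0.0507).

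EDS5 (AT4G39030, chromosome 4, 18185437 to 18189224, plus strand), the exporter of isochorismate, went the other way in emb1579-3. EDS5 was at 10.5, 7.36 and 8.69 CPM in emb1579-3, at 12.8, 10.6 and 9.46 CPM in the libraries labelled emb1579-1, and at 12.0 and 14.2 CPM in Col-0. All emb1579-3 libraries were below both Col-0 libraries, a pattern that 24.9% of all tested genes shared, while the libraries labelled emb1579-1 overlapped Col-0. The log2 fold change was -0.56 (SE 0.16, adjusted p = 0.0186) in emb1579-3 and -0.26 (SE 0.16, adjusted p = 0.298) under the label emb1579-1, and the difference between the lines did not pass the test. The EDS5 call was lost against Col-0 replicate 1 alone (-0.43, adjusted p = 0.185) and without the second (-0.45, adjusted p = 0.0882) or the third (-0.55, adjusted p = 0.0598) emb1579-3 library. EDS5 overlaps AT4G39040 on the opposite strand, which had log2 fold changes of -0.12 (SE 0.08) in emb1579-3 and -0.16 (SE 0.08) under the label emb1579-1 and did not pass the test.

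PBS3 (AT5G13320, chromosome 5, 4267456 to 4271064, plus strand), the enzyme of the glutamate conjugate, was at 2.98, 4.24 and 3.39 CPM in emb1579-3, at 4.04, 3.10 and 2.86 CPM in the libraries labelled emb1579-1, and at 4.39 and 5.55 CPM in Col-0. All libraries of the 2 lines were below both Col-0 libraries, as were 24.9% of all tested genes in emb1579-3 and 22.9% under the label emb1579-1. Its log2 fold changes of -0.50 (SE 0.23, adjusted p = 0.131) in emb1579-3 and -0.58 (SE 0.23, adjusted p = 0.0903) under the label emb1579-1 did not pass the test. Without the first library labelled emb1579-1, PBS3 passed under that label (-0.74, adjusted p = 0.0363).

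Of the NHP synthesis genes, ALD1 (AT2G13810, chromosome 2, 5768417 to 5772266, plus strand) had the smallest adjusted p of the 10 in both lines. ALD1 was at 0.339, 0.400 and 0.192 CPM in emb1579-3, at 0.389, 0.0688 and 0 CPM in the libraries labelled emb1579-1, and at 2.91 and 3.63 CPM in Col-0. Behind these levels stood 5, 5 and 3 counts in emb1579-3, 5, 1 and 0 counts under the label emb1579-1, and 47 and 70 counts in Col-0. All 6 libraries of the 2 lines were below both Col-0 libraries, a position shared by 24.9% of all tested genes in emb1579-3 and by 22.9% under the label emb1579-1. The 2 Col-0 libraries differed by 1.25-fold. ALD1 was lower by a log2 fold change of -3.39 (SE 0.51, adjusted p = 1.15e-04) in emb1579-3 and of -4.37 (SE 0.58, adjusted p = 3.41e-05) under the label emb1579-1. From summed counts ALD1 was 10.9-fold lower in emb1579-3, with an exact 95% counting interval of 6.13 to 21.1, and 22-fold lower under the label emb1579-1, with an interval of 9.8 to 61.1. These intervals cover counting error only. ALD1 was called in both lines in each of the 14 alternative analyses that tested it, and against Col-0 replicate 1 alone the values were -3.22 (adjusted p = 0.00178) in emb1579-3 and -4.20 (adjusted p = 6.41e-04) under the label emb1579-1. The 9-library fit and a filter of at least 1 CPM in 3 libraries did not test it. It passed the filter of 0.691 CPM only through the Col-0 libraries. Between the lines the log2 difference was 0.98 (SE 0.80, adjusted p = 0.783), at 13 counts in emb1579-3 and 6 under the label emb1579-1.

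FMO1 (AT1G19250, chromosome 1, 6650476 to 6653195, minus strand), the NHP-forming enzyme, was near the limit of these libraries. FMO1 was at 1.15, 0.320 and 0.383 CPM in emb1579-3, at 0.622, 1.24 and 0.239 CPM in the libraries labelled emb1579-1, and at 0.681 and 1.40 CPM in Col-0. The groups overlapped, and the log2 fold changes of -0.75 (SE 0.61, adjusted p = 0.441) in emb1579-3 and -0.55 (SE 0.61, adjusted p = 0.594) under the label emb1579-1 did not pass the test. A change of 2-fold in FMO1 was not detectable with that error at this depth.

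Of the output genes, PR1 (AT2G14610, chromosome 2, 6241640 to 6242541, minus strand) was barely detected under the label emb1579-1. PR1 was at 0.948, 2.56 and 0.703 CPM in emb1579-3, at 0.156, 0.138 and 0 CPM in the libraries labelled emb1579-1, and at 1.36 and 9.22 CPM in Col-0. That is 14, 32 and 11 counts in emb1579-3, 2, 2 and 0 counts under the label emb1579-1, and 22 and 178 counts in Col-0. The libraries labelled emb1579-1 were below every other library, and the 2 Col-0 libraries differed by 6.78-fold. Of all tested genes, 22.9% had every library labelled emb1579-1 below both Col-0 libraries, and 7.22% below every emb1579-3 library. PR1 was lower under the label emb1579-1 by a log2 fold change of -5.63 (SE 1.35, adjusted p = 0.0352), and by -3.65 (adjusted p = 0.0143) against Col-0 replicate 1 alone. The call was not made in 7 of 16 alternative analyses, among them those without any 1 of the libraries labelled emb1579-1 (-6.04 to -5.13, adjusted p = 0.111 to 0.128) and without the first (adjusted p = 0.0678) or the third (adjusted p = 0.054) emb1579-3 library. In emb1579-3 the value was -1.98 (SE 0.88, adjusted p = 0.183), with 0.00 (adjusted p = 1) against Col-0 replicate 1 alone and -2.75 (adjusted p = 5.47e-04) against Col-0 replicate 2 alone. Between the lines the log2 difference was 3.65 (SE 1.60, adjusted p = 0.562), and it passed the threshold in 4 of 15 alternative analyses. It was 3.652 without Col-0 replicate 1 and 3.655 without Col-0 replicate 2. Summed counts were 13.3-fold higher in emb1579-3, with an exact 95% counting interval of 4.91 to 50.4. This interval covers counting error only, and single emb1579-3 libraries ranged from 11 to 32 counts.

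PR2 (AT3G57260, also BGL2, chromosome 3, 21188397 to 21189967, minus strand), a beta-glucanase, was set by 1 library. PR2 was at 3.11, 2.16 and 1.47 CPM in emb1579-3, at 2.18, 2.13 and 2.70 CPM in the libraries labelled emb1579-1, and at 0.619 and 44.1 CPM in Col-0. The 2 Col-0 libraries, with 10 and 850 counts, lay on either side of all 6 libraries of the 2 lines. With both Col-0 libraries the log2 fold change was -3.33 (SE 1.41, adjusted p = 0.181) in emb1579-3 and -3.28 (SE 1.42, adjusted p = 0.202) under the label emb1579-1. Against Col-0 replicate 1 alone it turned to 1.84 (adjusted p = 0.0251) in emb1579-3 and 1.90 (adjusted p = 0.0248) under the label emb1579-1. Against Col-0 replicate 2 alone it was -4.28 (adjusted p = 9.47e-12) in emb1579-3 and -4.22 (adjusted p = 1.33e-11) under the label emb1579-1. No direction is given for PR2.

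PR5 (AT1G75040, chromosome 1, 28177670 to 28179022, plus strand), a thaumatin-like protein, was the 1 member that passed the test between the lines. PR5 was at 5.82, 7.36 and 7.73 CPM in emb1579-3, at 10.8, 13.6 and 10.8 CPM in the libraries labelled emb1579-1, and at 5.69 and 8.81 CPM in Col-0. Those labelled emb1579-1 were above all others, and emb1579-3 overlapped Col-0. Of all tested genes, 21.9% had every library labelled emb1579-1 above both Col-0 libraries, and 7.78% above every emb1579-3 library. Against Col-0 the log2 fold change came to -0.07 (SE 0.19, adjusted p = 0.853) in emb1579-3 and 0.69 (SE 0.19, adjusted p = 0.0152) under the label emb1579-1. PR5 was lower in emb1579-3 than under the label emb1579-1 by a log2 difference of -0.76 (SE 0.17, adjusted p = 0.0434), in a comparison where 0.436% of all tested genes were called lower and 0.431% higher. PR1, SARD1 and ALD1 had larger log2 differences between the lines that did not pass. The PR5 call was made in 10 of 16 alternative analyses. It was lost without the second (-0.63, adjusted p = 0.258) or the third library labelled emb1579-1 (adjusted p = 0.0999), or any 1 emb1579-3 library (adjusted p = 0.0941 to 0.196). Under the label emb1579-1 the call did not hold when Col-0 replicate 1 was left out (0.43, adjusted p = 0.165), nor without the second library of that label (0.57, adjusted p = 0.0717). PR1 and PR5, both SA readouts, stood on opposite sides of Col-0 under the label emb1579-1.

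**Figure D2:**
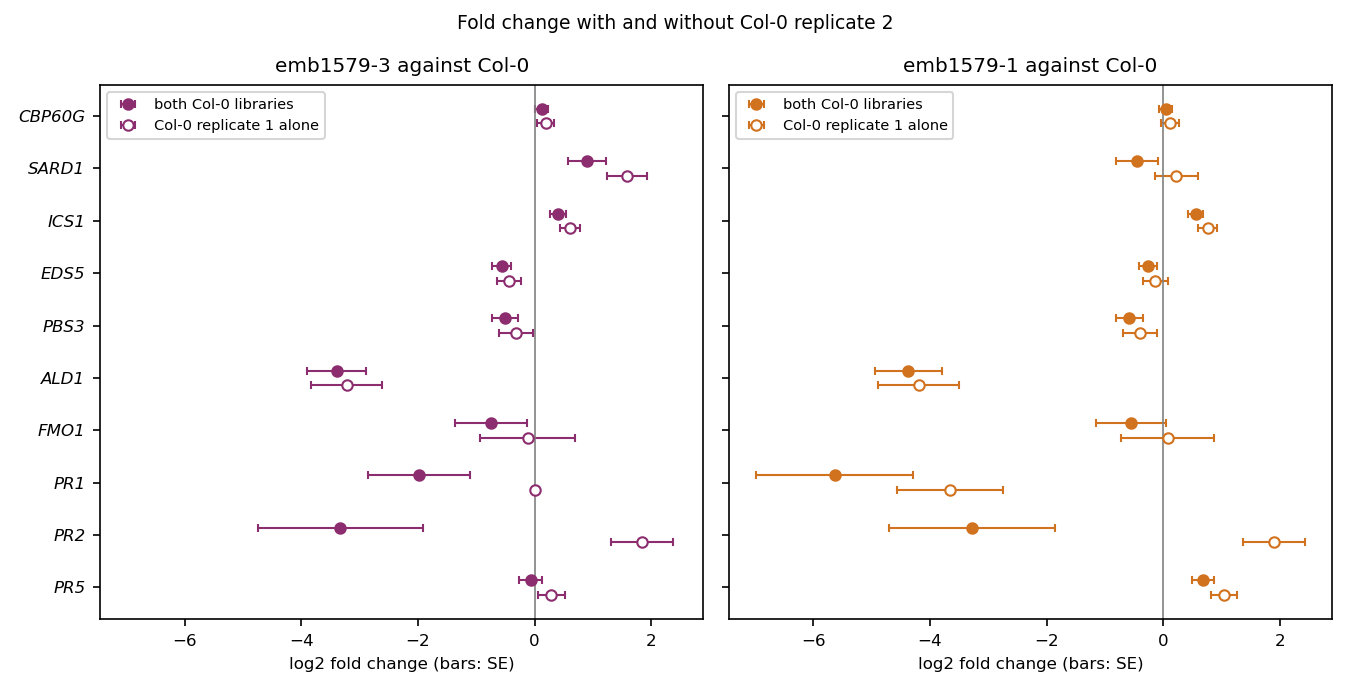
Log2 fold change of each gene against Col-0 (x axis) in emb1579-3 (left) and under the label emb1579-1 (right), with SE bars. Filled points use both Col-0 libraries and open points Col-0 replicate 1 alone. ALD1 stays between -3 and -4.5 in both panels under either choice, PR2 changes sign, and the open point of PR1 in emb1579-3 is at 0.00, where no bar is drawn because the test statistic was 0.

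Per kilobase of exon, CBP60G and ICS1 were among the more abundant transcripts of the 10 in every genotype. In emb1579-3 the order was CBP60G at 11.5, ICS1 at 8.0, PR5 at 6.36, EDS5 at 3.91, SARD1 at 3.61, PR1 at 1.56, PR2 at 1.52, PBS3 at 1.35, FMO1 at 0.323 and ALD1 at 0.197 CPM per kilobase. Under the label emb1579-1, CBP60G at 10.9 and PR5 at 10.7 CPM per kilobase led, and PR1 at 0.108 and ALD1 at 0.0971 CPM per kilobase came last. In Col-0, ALD1 averaged 2.08 CPM per kilobase and stood beside SARD1 at 1.91 and PBS3 at 1.90, with FMO1 last at 0.543. The Col-0 means of PR2 (15.1 ± 20.8 CPM per kilobase, SD, n = 2) and PR1 (5.87 ± 6.16 CPM per kilobase, SD, n = 2) had SDs above the mean and have no firm place in the order.

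The 2 Col-0 libraries differed in SA output genes more than in most genes. All 10 members were higher in Col-0 replicate 2 than in replicate 1, as were 49.9% of all tested genes, with a median log2 ratio of 0.48 against -0.001. PR2 had the second highest ratio of 20434 tested genes, at 71.2-fold, and PR1 the tenth, at 6.78-fold. Of 13 tested genes in a list of other SA and NHP output genes, 6 were at least 2-fold higher in replicate 2 (46.2%, against 1.57% of all tested genes), among them AED1, SAG13 and WAK1. The other 3 lists had 1 such gene each, DLO1 in SA synthesis and conjugation, NIMIN1 in SA perception and ACD6 among the upstream regulators. Replicate 2 also held counts at 76.6% of 5732 loci that were at 0 in every other library used, with a median of 3 counts and a 95th percentile of 15. The 178 and 850 counts of PR1 and PR2 are above that 95th percentile. For each other library, loci were taken that were at 0 in the rest, replicate 2 not counted among the rest. Those libraries held counts at 3.68% to 8.23% of such loci. The part of this library's difference in the results was not tested beyond the values without it.

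**Figure D3:**
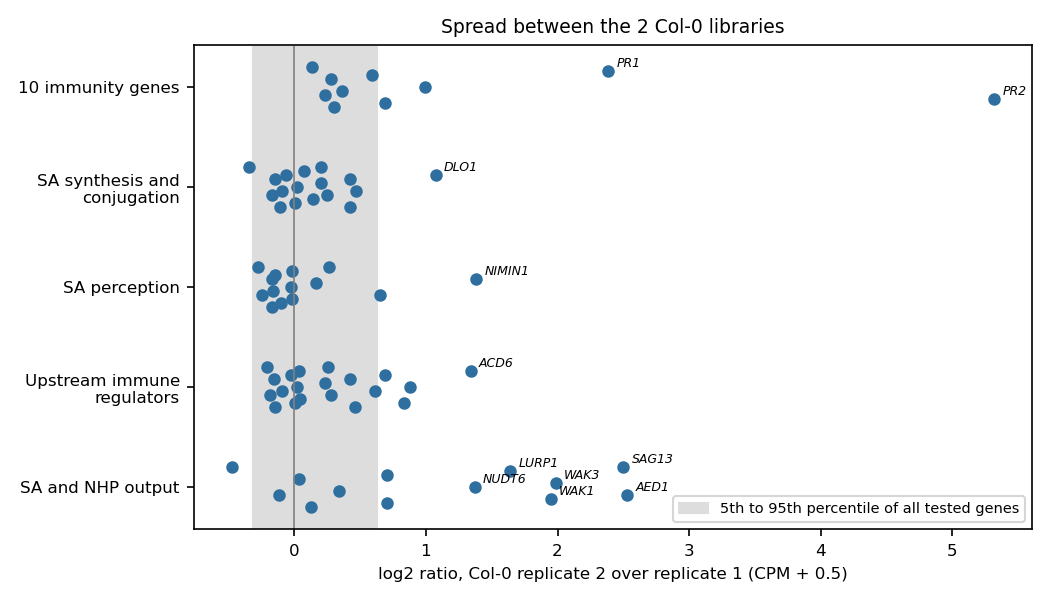
Log2 ratio of Col-0 replicate 2 over Col-0 replicate 1 (x axis, CPM + 0.5) for the 10 immunity genes and 4 lists of other pathway genes, 1 point per gene. The grey band spans the 5th to 95th percentile of all tested genes, -0.312 to 0.627, and PR2, PR1 6 of the SA and NHP output genes and 1 gene of each of the other 3 lists lie right of 1.

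Other genes of the pathway were read from 4 lists. Their counts stand beside 10% of all tested genes higher and 10.5% lower in emb1579-3. Under the label emb1579-1 these shares were 8.35% and 9.63%. Counts of 1 or 2 in lists of 13 to 20 tested genes are near such shares. Of 18 further SA synthesis and conjugation genes, 17 were tested, and 1 was higher and 2 lower in each line (medians -0.10 in emb1579-3 and -0.17 under the label emb1579-1). The lower ones were a phenylalanine ammonia-lyase gene, PAL4, and DMR6, which encodes a salicylic acid hydroxylase. PAL4 was at 19.6, 15.9 and 16.1 CPM in emb1579-3, at 20.9, 15.3 and 16.1 CPM in the libraries labelled emb1579-1, and at 36.8 and 35.2 CPM in Col-0. Its log2 fold change was -1.06 (SE 0.13, adjusted p = 9.6e-06) in emb1579-3 and -1.05 (SE 0.13, adjusted p = 1.41e-05) under the label emb1579-1. All libraries of the 2 lines were below both Col-0 libraries, as were 24.9% of all tested genes in emb1579-3 and 22.9% under the label emb1579-1. DMR6 was lower, at log2 fold changes of -0.46 (SE 0.14, adjusted p = 0.0263) in emb1579-3 and -0.84 (SE 0.15, adjusted p = 4.39e-04) under the label emb1579-1. The higher one, PAL3, rose by 0.48 (SE 0.12, adjusted p = 0.00841) in emb1579-3 and by 0.64 (SE 0.12, adjusted p = 9.56e-04) under the label emb1579-1. In emb1579-3 both calls were lost against Col-0 replicate 1 alone (-0.35, adjusted p = 0.222, for DMR6, and 0.31, adjusted p = 0.166, for PAL3), and that of DMR6 also without the second or the third emb1579-3 library (adjusted p = 0.0814 and 0.126). MES1, which encodes a methyl salicylate esterase, had values of 0.90 (SE 0.41, adjusted p = 0.133) in emb1579-3 and 1.17 (SE 0.40, adjusted p = 0.0508) under the label emb1579-1 and did not pass.

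Of 14 SA perception genes, 1 was lower in emb1579-3 and 3 under the label emb1579-1 (medians -0.02 in emb1579-3 and -0.09 under the label emb1579-1). TGA1, which encodes a bZIP factor that works with NPR1, was lower in both lines. TGA1 was at 59.7, 63.5 and 59.6 CPM in emb1579-3, at 64.6, 56.5 and 58.6 CPM in the libraries labelled emb1579-1, and at 126 and 104 CPM in Col-0. Every library of the 2 lines was below both Col-0 libraries, as were 24.9% of all tested genes in emb1579-3 and 22.9% under the label emb1579-1. The log2 fold change of TGA1 was -0.92 (SE 0.09, adjusted p = 1.2e-06) in emb1579-3 and -0.94 (SE 0.09, adjusted p = 1.17e-06) under the label emb1579-1. The SA receptor genes NPR4 (-0.39, SE 0.08, adjusted p = 0.00309) and NPR1 (-0.29, SE 0.08, adjusted p = 0.0215) were lower under the label emb1579-1. In emb1579-3 the values of -0.08 for NPR4 (adjusted p = 0.566) and -0.07 for NPR1 (adjusted p = 0.601) did not pass, and the difference between the lines did not pass for either gene. NPR1 overlaps other genes, and its call was lost against either Col-0 library alone (adjusted p = 0.0874 and 0.108) and without the second library labelled emb1579-1 (adjusted p = 0.0638). NIMIN1, whose product binds NPR1, had values of 0.09 (adjusted p = 0.923) in emb1579-3 and -1.55 (adjusted p = 0.0594) under the label emb1579-1.

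Of 20 regulators upstream of SA, 2 were higher and 1 lower in emb1579-3, and 1 higher and 2 lower under the label emb1579-1 (medians 0.00 in emb1579-3 and -0.06 under the label emb1579-1). SAG101, which encodes a partner of EDS1 in immune receptor signalling, rose by 0.46 (SE 0.12, adjusted p = 0.00879) in emb1579-3 and by 0.64 (SE 0.12, adjusted p = 7.53e-04) under the label emb1579-1. EDS1 itself fell by 0.37 (SE 0.10, adjusted p = 0.0188) under the label emb1579-1 and had a value of -0.12 (adjusted p = 0.488) in emb1579-3. Against Col-0 replicate 1 alone, the calls of SAG101 in emb1579-3 (0.38, adjusted p = 0.106) and of EDS1 (-0.22, adjusted p = 0.304) were lost, and that of EDS1 also without the second library labelled emb1579-1 (adjusted p = 0.052). CBP60A, a relative of CBP60G described as a negative regulator, was lower in emb1579-3 (-0.28, SE 0.09, adjusted p = 0.041). CBP60A overlaps another gene, and its call was not followed through the alternative analyses. WRKY70 and WRKY54 encode related factors of the SA response. WRKY70 was at 123, 104 and 120 CPM in emb1579-3, at 62.5, 56.1 and 46.2 CPM in the libraries labelled emb1579-1, and at 71.6 and 110 CPM in Col-0. Its log2 fold change was 0.35 (SE 0.19, adjusted p = 0.258) in emb1579-3 and -0.73 (SE 0.19, adjusted p = 0.0352) under the label emb1579-1. Against Col-0 replicate 1 alone the values were 0.70 (adjusted p = 0.00454) in emb1579-3 and -0.38 (adjusted p = 0.0899) under the label emb1579-1, and against Col-0 replicate 2 alone the values were 0.09 (adjusted p = 0.719) in emb1579-3 and -0.99 (adjusted p = 6.49e-05) under the label emb1579-1. The WRKY70 call under the label emb1579-1 was made in 8 of 16 alternative analyses, and was lost without the second (adjusted p = 0.0995) or the third (adjusted p = 0.0547) library of that label and without the first (adjusted p = 0.0557) or the third (adjusted p = 0.0783) emb1579-3 library. WRKY54 was at 18.2, 18.9 and 24.6 CPM in emb1579-3, at 9.57, 9.77 and 7.31 CPM in the libraries labelled emb1579-1, and at 9.34 and 15.4 CPM in Col-0, with a log2 fold change of 0.73 (SE 0.20, adjusted p = 0.0224) in emb1579-3, lost against Col-0 replicate 2 alone (0.44, adjusted p = 0.112) and without the third emb1579-3 library (adjusted p = 0.0758). Both genes were higher in every emb1579-3 library than in every library labelled emb1579-1, as were 7.22% of all tested genes.

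Of 15 further genes listed as SA and NHP output, 13 were tested, with 3 higher and 1 lower in emb1579-3, and 1 higher under the label emb1579-1 (medians 0.57 in emb1579-3 and -0.01 under the label emb1579-1). No treatment was named, so whether each listed gene, PRB1 included, answers to SA was not tested. PRB1, a basic relative of PR1, rose by 1.23 (SE 0.38, adjusted p = 0.0272) in emb1579-3 and by 1.57 (SE 0.37, adjusted p = 0.00657) under the label emb1579-1, and lost both calls against Col-0 replicate 1 alone (0.92, adjusted p = 0.209, in emb1579-3 and 1.25, adjusted p = 0.0865, under the label emb1579-1). In emb1579-3 the PRB1 call was also lost without the second (1.01, adjusted p = 0.102) or the third (1.22, adjusted p = 0.0743) emb1579-3 library. PCC1 was at 23.6, 25.5 and 23.4 CPM in emb1579-3, at 11.4, 8.32 and 7.0 CPM in the libraries labelled emb1579-1, and at 9.90 and 16.4 CPM in Col-0. Its log2 fold change was 0.87 (SE 0.20, adjusted p = 0.0102) in emb1579-3 and -0.58 (SE 0.22, adjusted p = 0.0916) under the label emb1579-1. LLP1, which encodes a lectin-like protein of systemic resistance and overlaps another gene, was at 45.9, 28.1 and 40.3 CPM in emb1579-3, at 11.1, 15.9 and 15.6 CPM in the libraries labelled emb1579-1, and at 8.85 and 14.7 CPM in Col-0, and rose by 1.69 (SE 0.29, adjusted p = 0.00749) in emb1579-3. WAK3, a wall-associated kinase gene, was lower in emb1579-3 (-3.33, SE 0.92, adjusted p = 0.0242). It had 5, 0 and 2 counts in emb1579-3, 6, 15 and 6 under the label emb1579-1, and 6 and 57 in Col-0. The WAK3 call was lost against Col-0 replicate 1 alone (-1.15). It was also lost without the second (-2.84, adjusted p = 0.0625) or the third (-3.17, adjusted p = 0.11) emb1579-3 library.

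**Figure D4:**
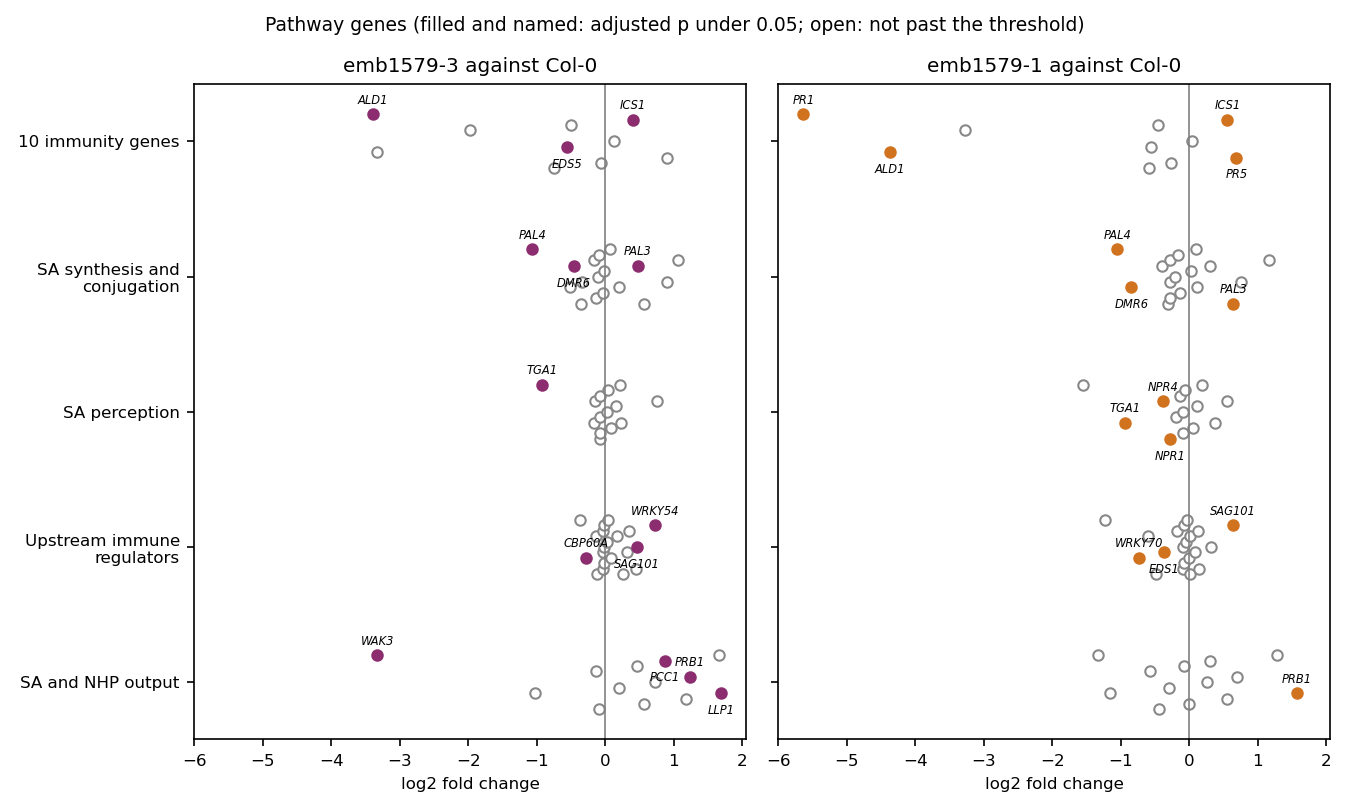
Log2 fold change against Col-0 (x axis) in emb1579-3 (left) and under the label emb1579-1 (right), 1 point per tested gene, for the 10 immunity genes and 4 lists of other pathway genes. Filled, named points have an adjusted p under 0.05, and most points of every list are open.

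Between the lines, 3 of the list genes were called, PCC1, WRKY54 and WRKY70, each higher in emb1579-3. In that comparison 0.431% of all tested genes were called higher and 0.436% lower. The log2 difference was 1.44 (SE 0.19, adjusted p = 0.00355) for PCC1, 1.21 (SE 0.19, adjusted p = 0.00901) for WRKY54 and 1.08 (SE 0.18, adjusted p = 0.0428) for WRKY70. The calls of PCC1 and WRKY54 were lost without the second library labelled emb1579-1 (adjusted p = 0.0568 for PCC1 and 0.0564 for WRKY54), and that of WRKY70 without any 1 of the 6 libraries of the 2 lines (adjusted p = 0.0569 to 0.243). LLP1 had a difference of 1.43 (SE 0.26, adjusted p = 0.0773) and did not pass.

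Some tissue markers differed from Col-0 as well. Of 10 root markers, 4 were lower and 0 higher in each line, and 6 were not called. Of all tested genes, 10.5% were called lower and 10% higher in emb1579-3, and 9.63% lower and 8.35% higher under the label emb1579-1. Summed root marker levels were 155 to 167 CPM in emb1579-3, 126 to 164 CPM under the label emb1579-1 and 201 to 219 CPM in Col-0. Of 8 shoot markers, 4 were lower and 1 higher in emb1579-3, and 3 were lower under the label emb1579-1. Their summed levels were 21300 to 22600 CPM in emb1579-3, 19700 to 23900 CPM under the label emb1579-1 and 23600 to 26000 CPM in Col-0. The ranges of the label emb1579-1 and of Col-0 overlapped. No marker was at 0 in any group. Their part in the values of the immunity genes was not tested.

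Across the 8 libraries, the tested genes with a symbol whose log2(CPM + 0.5) was most like that of ALD1 were PLC9 (Pearson r 0.994), ARR6 (0.991) and EMB3119 (0.99). Those most like ICS1 were emb2191 (0.986), EXPA16 (0.977) and PMEPCRA (0.962), and those most like PR1 were UMAMIT21 (0.986), TT5 (0.958) and CCB1 (0.943). With 8 libraries from 3 genotypes, an r over 0.9 was not limited to the genes named. It was reached by 3.51% of tested genes with ALD1, 0.847% with ICS1 and 0.196% with PR1. The r values describe these libraries only.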

How the data were processed

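The data were RNA-seq counts per gene, which the authors deposited as 1 table of whole numbers without normalization. Per the submitters' processing notes, FastQC, HISAT2, Cufflinks and Cuffdiff were used on the build TAIR10. How reads were assigned to genes, and whether strand was used, is not given in those notes or in the labels, so overlapping genes are uncertain. The design text speaks of biological replicates, and chi-square values of 3.86 to 9.63 per gene show that libraries of 1 group differed by more than sampling noise.

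Chloroplast and mitochondrial genes, 45.8% to 49.6% of counts in the 8 libraries, were left out. The remaining counts were tested in edgeR 4.0.16 (R 4.3.3, limma 3.58.1) by the quasi-likelihood F-test, with TMM factors, robust dispersions, the default filter (a minimum count of 10, here 0.691 CPM) and genotype as the only factor, all 8 libraries sharing 1 fit. Benjamini-Hochberg adjustment ran over 20434 nuclear genes, with 0.05 as the threshold. SE is the absolute log2 fold change over the square root of F. The fit had 5 residual degrees of freedom and a common biological coefficient of variation of 0.0884. CPM use TMM-scaled nuclear totals. The script was checked on simulated counts.

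Symbols, positions, overlaps and upstream sequence came from the RefSeq annotation and genome of TAIR10.1, which matched 32835 of 33323 nuclear loci. Of 95 member and list genes, 89 carried their symbol there and 6 were used by locus. The members and lists were chosen with earlier results of these data known. Named genes are the 10 members, EMB1579, up to 4 genes of each pathway list with the smallest adjusted p in either line, and the 3 genes most like ICS1, ALD1 and PR1. CBP60A, AED1, SAG13, WAK1, DLO1 and ACD6 fall outside that rule and were chosen after their values were seen. Replicate numbers of emb1579-3 come from the column names. Alternatives were another filter or none, DESeq2 1.42.0, its size factors, all 9 libraries, organelle genes kept in, fewer groups in the fit, a replicate block and leaving out each library.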

Additional observations from a re-analysis of the deposited data

Results flagged for a closer look

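Of the 10 members, EMB1579 and the genes of the pathway lists, 5 differed between the 2 lines by the test of the difference itself, given as log2, emb1579-3 over the label emb1579-1. EMB1579 differed by -5.04 (SE 0.14, adjusted p = 7.33e-13) and PR5 by -0.76. PCC1 differed by 1.44, WRKY54 by 1.21 and WRKY70 by 1.08. In Col-0 replicate 3, which was used only in the alternative with all 9 libraries, EDS5 stood at 163 CPM on 69 counts, while every other member had 0 to 2 counts there.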

How the results depend on the processing

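ALD1 kept its call and direction in both lines in all 14 alternatives that tested it; the 9-library fit and the filter of at least 1 CPM in 3 libraries dropped it. With all 9 libraries, edgeR called 0 members in every comparison (members at an unadjusted p under 0.05 were 2 higher and 2 lower in emb1579-3, 2 and 4 under the label emb1579-1, and 2 and 1 between the lines), and 69 genes were higher and 71 lower in emb1579-3, 58 and 56 under the label emb1579-1, and 0 and 2 between the lines. EDS5 then had -3.47 (adjusted p = 0.345) in emb1579-3 and -3.16 (adjusted p = 0.4) under the label emb1579-1. EMB1579 then had 0.35 under the label emb1579-1, and in emb1579-3 NPR4 had 0.20 and EDS1 0.13, signs turned round.

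With no expression filter, 283 genes were higher and 301 lower between the lines, against 88 and 89, members called were 2 higher and 4 lower in emb1579-3 and 2 higher between the lines, the median of all genes shifted to -0.16 in emb1579-3 and -0.15 under the label emb1579-1, and EMB1579 under that label had 0.003. With at least 1 CPM in 3 libraries, 1 member was lower in each line. With the 2 groups compared alone, 1 member was lower under the label emb1579-1 and 1 higher between the lines. DESeq2 called 135 genes higher and 139 lower, and 1 member higher, between the lines.

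Same-numbered libraries had deviations from their group means correlated at -0.104 to 0.132, and libraries of unlike number at -0.161 to 0.104. Between the 2 lines the values were 0.132, 0.027 and 0.128 for the same number and -0.161 to 0.031 for unlike numbers. Not every library correlated best with its own number. Whether libraries of 1 number shared a batch cannot be told from these values. The replicate block called 1920 genes higher and 1937 lower in emb1579-3, 1701 and 1895 under the label emb1579-1, and 128 and 128 between the lines, with 1 member higher there. PR1 passed under the block in emb1579-3 (-1.37, adjusted p = 0.021) and between the lines (3.84, adjusted p = 0.00398), and MES1 under the label emb1579-1 (adjusted p = 0.0186). Calls not made under the block were LLP1 (adjusted p = 0.0714), DMR6 (0.0624) and PRB1 (0.0592) in emb1579-3, and WRKY70 under the label emb1579-1 (0.179) and between the lines (0.211). Under the block NIMIN1 in emb1579-3 turned to -0.025 and PR2 between the lines to 0.062.

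Leaving out 1 library gave these ranges. Genes called were 1304 to 2496 higher and 1510 to 3060 lower in emb1579-3, 1180 to 2005 and 1369 to 3071 under the label emb1579-1, and 34 to 210 and 29 to 160 between the lines. Members called were 0 to 3 higher and 1 to 4 lower in emb1579-3, 0 to 3 and 1 to 3 under the label emb1579-1, and 0 to 2 and 0 to 1 between the lines. Log2 values that changed sign ranged, in emb1579-3, over -2.75 to 0.00 for PR1, -4.28 to 1.84 for PR2, -0.32 to 0.29 for PR5, -0.50 to 1.29 for NIMIN1 and -0.23 to 0.034 for EDS1. Under the label emb1579-1 they ranged over -4.22 to 1.90 for PR2, -1.27 to 0.075 for FMO1, -0.024 to 0.15 for CBP60G, -0.87 to 0.23 for SARD1, -0.036 to 0.68 for LLP1 and -2.11 to 0.84 for WAK3. Between the lines they ranged over -0.38 to 0.19 for PR2, -0.061 to 0.23 for PBS3, -1.0 to 0.53 for FMO1 and -0.028 to 0.14 for CBP60G. Causes were not tested. Counts of 0 to 32 for ALD1 and PR1 in libraries of the 2 lines limit the size of their folds.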
